A study of Homo sapiens with 30 samples.

Results

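The genes described are the well expressed members of the ZNF-named zinc finger family in 3 established human tumour lines, with and without ML-792, which the labels also call ML00754792, a small molecule that blocks the SUMO-activating enzyme. Members were the rows of the deposited gene table whose name is ZNF followed by a number and at most 1 letter, and whose mean over the 9 vehicle libraries of 16 h was at least 4 FPKM (fragment counts scaled by gene length and by library size). This gave 150 genes out of 526 ZNF-named rows and 30373 rows in all, and 9835 rows of any name met the same level. The vehicle levels of 16 h chose the members, so those levels are given as a description with no test. Just inside the limit were ZNF646, ZNF680 and ZNF227 at 4.003, 4.011 and 4.014 FPKM, and just outside it were ZNF48, ZNF473 and ZNF252P at 3.989, 3.959 and 3.91 FPKM.

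The 30 libraries of polyadenylated RNA formed 10 groups of 3, which the labels call biological triplicates. At 16 h, HCT116, COLO205 and MDAMB231 cells had received ML-792 at 500 nM or the vehicle DMSO at 0.01%, which makes 6 groups and 18 libraries. At 3.5 h, HCT116 cells alone had received ML-792 or DMSO with a heat shock, or ML-792 or DMSO without it, which makes 4 groups and 12 libraries. The heat shocked cells had 2 h of ML-792 or DMSO, then 0.5 h at 43 °C and 1 h at 37 °C. HCT116 and COLO205 are established colorectal cancer lines and MDAMB231 is an established breast cancer line.

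Most ZNF-named genes encode C2H2 zinc finger proteins, in which short repeated fingers, each folded around a zinc ion held by cysteines and histidines, read DNA sequence. Many of them also carry a KRAB domain, which recruits the corepressor TRIM28, and TRIM28 in turn brings the H3K9 methyltransferase SETDB1 with its partner ATF7IP, heterochromatin proteins of the CBX family, and the NuRD remodeller with CHD3 or CHD4 to the bound site. TRIM28 is modified by SUMO, a small protein that the SUMO-activating enzyme prepares for attachment, and that modification is known to help TRIM28 recruit SETDB1 and NuRD. Genes for KRAB zinc finger proteins lie in clusters, above all on chromosome 19, and ZNF274 is known to bind the ends of other zinc finger genes and to recruit SETDB1 there.

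The depth of a library can be seen only in relative terms from its lowest FPKM steps. Taking the first HCT116 DMSO library of 16 h as 1, it ran between 0.811 and 1.04 at 16 h, between 1.11 and 1.65 with heat shock, and between 1.44 and 2.19 at 3.5 h without it. Replicates of 1 group correlated at 0.9959 or more, and no libraries of the same group held identical values. The mitochondrially encoded genes made up 16.3 to 18.9% of summed FPKM at 16 h and 9.05 to 12% at 3.5 h. Library numbers in the labels of the heat shocked and the other 3.5 h libraries fall in separate blocks, so heat shock and any difference between the blocks cannot be told apart. Those of the 16 h libraries fall in a further block, so the same holds for time. Of the line markers, EPCAM, KRT8 and KRT18 were present in all 3 lines and VIM stood at 885 FPKM in MDAMB231 DMSO cells, while the intestinal markers VIL1, CDX1 and LGALS4 were at or near 0 in HCT116. CDX2, another intestinal marker, was at 5.87 FPKM in HCT116, the highest of the 3 lines, and at 0.275 FPKM in COLO205. SPARC, a mesenchymal marker, was at 0.191 FPKM in MDAMB231.

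The members spanned a wide range of levels in vehicle cells of 16 h. ZNF207, which binds BUB3 and spindle microtubules, had the highest mean over the 9 libraries at 74.6 FPKM. ZNF664, ZNF146, ZNF593 and ZNF706 followed at 41.3, 36.0, 29.5 and 29.02 FPKM. Of the 150 genes, 99 lay within 2-fold of each other across the 3 lines on the FPKM + 1 scale, 51 differed by more, and 15 of these by over 4-fold. In 91 genes the mean was at least 4 FPKM in every line, and 9 genes were under 1 FPKM in at least 1 line.

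The genes with the widest spread between lines were close to silent in 1 of them. ZNF83 averaged 10.7 FPKM in HCT116, 0.0384 FPKM in COLO205 and 13.9 FPKM in MDAMB231 under DMSO. ZNF69 averaged 0.0199, 12.4 and 3.95 FPKM in the same order of lines. ZNF703, a gene amplified in some breast cancers, averaged 0.847 FPKM in HCT116, 21.3 FPKM in COLO205 and 13.9 FPKM in MDAMB231. ZNF518B was at 10.1 FPKM in HCT116 and 3.70 FPKM in MDAMB231, and was listed at 0 in all 3 COLO205 DMSO libraries. ZNF503 averaged 11.4 FPKM in HCT116, 3.43 FPKM in COLO205 and 0.282 FPKM in MDAMB231. ZNF274 stood at 3.64 FPKM in HCT116, 4.14 FPKM in COLO205 and 16.8 FPKM in MDAMB231. In bulk RNA such levels are averages over all cells of a culture.

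In HCT116 at 16 h the members moved mostly in 1 direction under ML-792. A total of 44 of the 150 (29.3%) were higher than in DMSO and 2 (1.33%) were lower at a limma adjusted p under 0.05. The background over all 14251 genes tested was 8.32% higher and 6.42% lower, and over the 9835 genes with the same level it was 8.68% and 6.77%. The median change of the members was 0.07 on the log2(FPKM + 1) scale, against 0.00349 over all genes tested, so the typical shift was small beside that of the named genes. All changes below are on this scale, which understates the fold of genes with low values. The DMSO libraries that chose the members are also the controls here. Members chosen instead by at least 4 FPKM over the 12 libraries of 3.5 h, which include ML-792 libraries, were 160 genes, of which 46 were higher and 2 lower.

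ZNF274 had the largest rise. It was measured at 7.80, 8.42 and 8.46 FPKM in the ML-792 libraries, against 3.79, 3.69 and 3.43 FPKM in the DMSO libraries. The groups stood far apart, with a log2 change of 0.99 ± 0.071 (SE; adjusted p = 3.62e-08). ZNF75A was at 5.55, 6.50 and 6.07 FPKM with ML-792 and at 3.37, 3.56 and 2.80 FPKM with DMSO (log2 0.73 ± 0.072). ZNF266, a KRAB zinc finger gene of chromosome 19, was at 5.28, 6.17 and 5.96 FPKM with ML-792 and at 3.51, 3.35 and 3.03 FPKM with DMSO (log2 0.66 ± 0.058). Neither pair of groups overlapped. ZNF532, known as a fusion partner in NUT carcinoma, was at 5.0, 5.40 and 5.07 FPKM with ML-792 and at 3.18, 3.06 and 2.89 FPKM with DMSO (log2 0.61 ± 0.077). ZNF480 changed by 0.56 ± 0.062 and ZNF227 by 0.54 ± 0.071. The 2 genes that fell were ZNF428, at 12.1, 10.5 and 9.80 FPKM with ML-792 against 13.4, 14.5 and 17.6 FPKM with DMSO (log2 -0.45 ± 0.094), and ZNF691 (log2 -0.18 ± 0.054). The call of ZNF691 was lost without ML-792 replicate 2 (adjusted p = 0.0538) or 3 (0.137) and without DMSO replicate 2 (0.122) or 3 (0.0638), and when the HCT116 libraries were fitted alone (0.0747).

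The window of 250 bases before the start of ZNF274 is shown because this gene changed most under ML-792 in HCT116 and was higher in each ML-792 comparison. It is the RefSeq sequence of GRCh38.p14, chr19:58182811-58183060 on the plus strand, and capitals mark the ETS core, which reads on the opposite strand.
ZNF274 promoter: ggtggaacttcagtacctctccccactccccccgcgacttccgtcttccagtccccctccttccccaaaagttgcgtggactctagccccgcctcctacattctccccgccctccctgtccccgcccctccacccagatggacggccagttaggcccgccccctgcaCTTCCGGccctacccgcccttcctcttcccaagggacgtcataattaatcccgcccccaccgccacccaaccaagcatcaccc
The ETS core was searched as CCGGAAG on either strand. It was found in 38 of the 126 members with a promoter in the table (30.2%) and in 10.2% of the 27305 genes with one. The cyclic AMP response element TGACGTCA was found in 9 members (7.14%) and 2.03% of all genes, and the CCAAT box, CCAAT on either strand, in 53 members (42.1%) and 37% of all genes. The members were chosen by level and the 27305 genes were not, so these shares compare unlike sets. A match of letters is a description and was not tied to any change here.

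**Figure D1:**
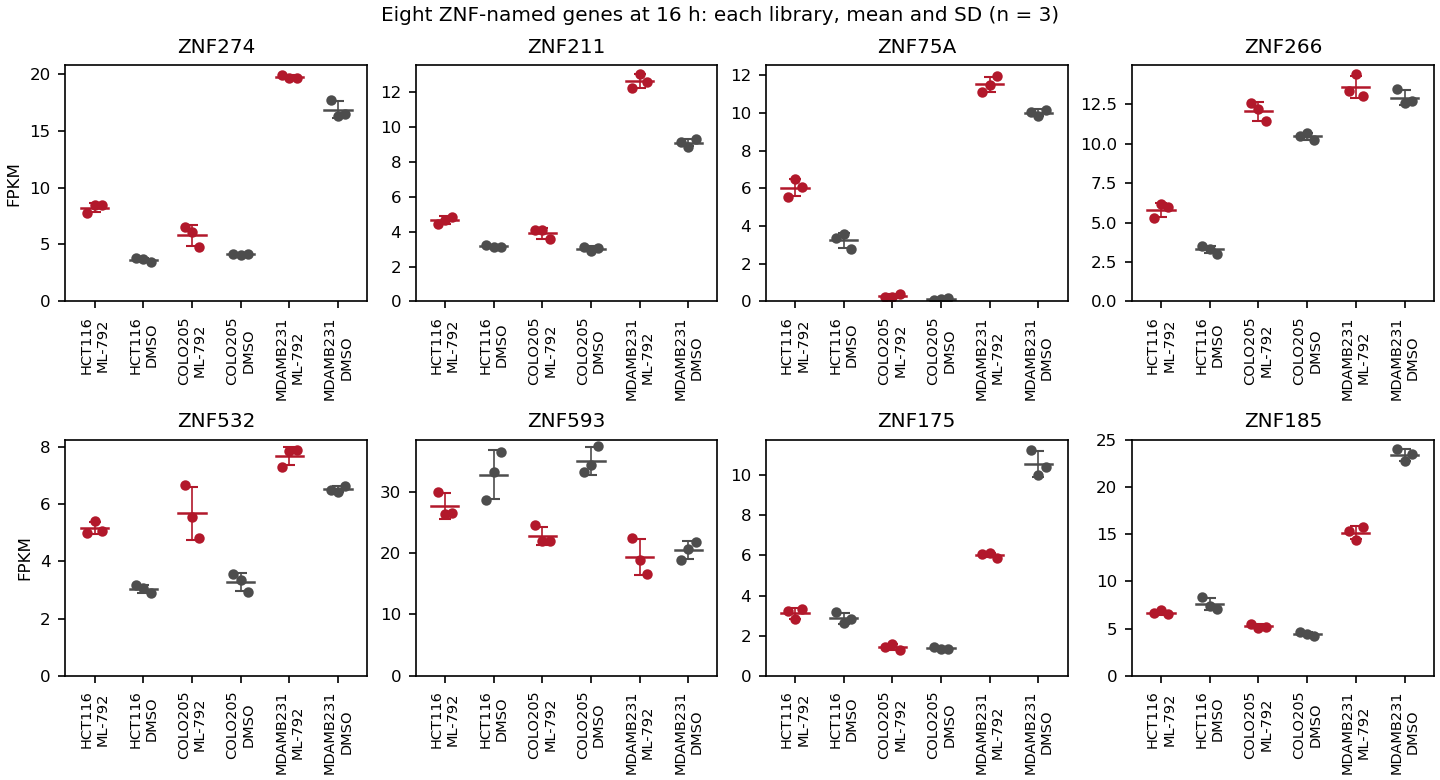
FPKM (vertical axes, from 0) of 8 named genes in the 18 libraries of 16 h, with ML-792 in red and DMSO in grey. Points are libraries, long lines are means and bars are SD (n = 3). ZNF274 sits at 7.80 to 8.46 with ML-792 and at 3.43 to 3.79 with DMSO in HCT116, while ZNF175 and ZNF185 are lower with ML-792 in MDAMB231.

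In COLO205 at 16 h the members moved both ways. Of the 150, 38 (25.3%) were higher with ML-792 and 25 (16.7%) lower, beside 19.4% and 17.7% of all genes tested and 19.6% and 21.2% of genes with the same level. These shares lie near the background, and the median change was 0.02. ZNF532 rose most, with 6.68, 5.55 and 4.83 FPKM in ML-792 libraries against 3.54, 3.33 and 2.92 FPKM in DMSO libraries (log2 0.64 ± 0.077, adjusted p = 4.71e-06). ZNF182 was at 6.26, 5.74 and 5.88 FPKM with ML-792 and at 3.88, 3.93 and 3.74 FPKM with DMSO (log2 0.52 ± 0.058). ZNF143, an activator bound at many promoters, was at 6.77, 6.16 and 6.90 FPKM with ML-792 and at 4.72, 4.79 and 4.97 FPKM with DMSO (log2 0.38 ± 0.051). The groups did not overlap in any of these genes. ZNF506, ZNF274 and ZNF385A, the last of which binds p53, rose by 0.40, 0.39 and 0.36.

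The largest falls in COLO205 were in genes without a KRAB match, which 100 of the 148 members with a coding sequence also lacked. ZNF593, whose yeast relative acts in ribosome assembly, was at 24.6, 22 and 22 FPKM with ML-792 and at 33.2, 34.4 and 37.5 FPKM with DMSO (log2 -0.60 ± 0.098). ZNF239 was at 5.24, 5.56 and 4.35 FPKM with ML-792 and at 8.15, 8.26 and 7.42 FPKM with DMSO (log2 -0.57 ± 0.095). ZNF598, a ubiquitin ligase that senses collided ribosomes, was at 15.7, 16.4 and 17.2 FPKM with ML-792 and at 23.3, 24.3 and 24.4 FPKM with DMSO (log2 -0.52 ± 0.10). ZNF787 changed by -0.45 ± 0.12. The groups of these 4 genes did not overlap.

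In MDAMB231 at 16 h fewer members were called. Of the 150, 12 (8%) were higher with ML-792 and 7 (4.67%) lower, beside 8.38% and 8.48% of all genes tested and 7.77% and 9.16% of genes with the same level. The total of 19 was 9 without ML-792 replicate 2, 11 without ML-792 replicate 3 and 12 without DMSO replicate 3. With every library scaled to the same total outside the mitochondrial genes, 6 were higher and 8 lower, beside 7.76% and 8.56% of all genes tested. ZNF211 rose most, with 12.2, 13.0 and 12.6 FPKM in ML-792 libraries against 9.10, 8.87 and 9.32 FPKM in DMSO libraries (log2 0.43 ± 0.051, adjusted p = 8.93e-06). ZNF655 was at 29.1, 29.9 and 30.9 FPKM with ML-792 and at 22.8, 22.2 and 23.0 FPKM with DMSO (log2 0.39 ± 0.089). ZNF385A and ZNF92 both changed by 0.33. ZNF83 changed by 0.23 ± 0.056, and its call was lost without ML-792 replicate 2 (adjusted p = 0.0514) or DMSO replicate 3 (0.0524) and with a pseudocount of 0.1 (0.278).

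Several falls in MDAMB231 were larger than its rises. ZNF175, a KRAB zinc finger gene, was at 6.06, 6.13 and 5.89 FPKM with ML-792 and at 11.3, 10.03 and 10.4 FPKM with DMSO (log2 -0.72 ± 0.063, adjusted p = 2.63e-07). ZNF185, which is a LIM-domain protein of the actin cytoskeleton and had no C2H2 finger in its translated sequence, was at 15.4, 14.4 and 15.7 FPKM with ML-792 and at 24.0, 22.7 and 23.5 FPKM with DMSO (log2 -0.60 ± 0.054). ZNF518A was at 1.64, 2.03 and 2.16 FPKM with ML-792 and at 3.53, 3.32 and 3.22 FPKM with DMSO (log2 -0.57 ± 0.073). The groups of all 3 genes were separate. ZNF395 changed by -0.48 ± 0.042.

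Across the lines, 4 members were called higher in all 3 and none lower. That is 2.67% of the members, beside 1.23% higher and 0.821% lower of all genes tested, and 1.32% higher of genes with the same level. They were ZNF211, ZNF274, ZNF251 and ZNF280D. ZNF211 changed by 0.44 in HCT116, 0.29 in COLO205 and 0.43 in MDAMB231. ZNF251 changed by 0.20, 0.22 and 0.23, and ZNF280D by 0.30, 0.22 and 0.18, in the same order of lines. ZNF274 was at 19.9, 19.6 and 19.6 FPKM with ML-792 in MDAMB231, against 17.7, 16.3 and 16.5 FPKM with DMSO. That change of 0.22 ± 0.071 had an adjusted p of 0.043, which rose above 0.05 without any of the 3 ML-792 replicates or DMSO replicate 2 or 3 (0.0863 to 0.14), and also with a pseudocount of 0.1 (0.0711), no filter (0.0681) or equal totals (0.0693). The MDAMB231 call of ZNF280D was lost without the same 5 libraries (up to 0.237), and with a pseudocount of 5, no filter, equal totals or the line's own libraries alone (0.06 to 0.0869). With equal totals the HCT116 call of ZNF251 was lost too (0.0712), as it was without ML-792 replicate 2 (0.0699) or DMSO replicate 2 (0.062) or 3 (0.0642). The count of 4 was 10 after GC and length trends were removed, 1 with equal totals and 2 with no filter. It was 1 without HCT116 ML-792 replicate 2 or DMSO replicate 2, and 2 without any of the 3 COLO205 DMSO replicates, MDAMB231 ML-792 replicate 2 or 3, or MDAMB231 DMSO replicate 2.

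Outside these 4, 27 members were higher in 2 lines, 26 in 1 line alone and 26 lower in 1 line alone. ZNF518A, ZNF428 and ZNF691 were lower in 2 lines. ZNF185 was higher in COLO205 and lower in MDAMB231, and ZNF124 was higher in HCT116 and lower in MDAMB231. The other 62 were called in no line. Of the members 58.7% were called in at least 1 line, beside 52.2% of all genes tested, and 1.33% were called in opposite directions, beside 2.74%. A call in 1 line and not in another does not show a difference between lines, so the differences themselves were tested.

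Relative to HCT116, the ML-792 change was smaller or more negative in the other lines for more members than it was larger. For COLO205 minus HCT116 it was larger in 8 members and smaller in 25 (background 9.66% and 9.75%), and for MDAMB231 minus HCT116 larger in 2 and smaller in 23 (background 4.93% and 5.84%). The total of 33 for COLO205 was 19 without HCT116 ML-792 replicate 2, and with equal totals it was 8 larger and 13 smaller (background 10.7% and 7%). Both differences use the same HCT116 libraries. The ZNF274 change was smaller by 0.60 ± 0.10 in COLO205 (log2 difference -0.60, adjusted p = 0.000427) and the difference for MDAMB231 was -0.77 ± 0.10 (adjusted p = 5.76e-05). The ZNF239 difference was -0.84 ± 0.13 in COLO205. In HCT116 that gene was at 2.56, 2.42 and 2.41 FPKM with ML-792 and at 2.09, 1.59 and 1.95 FPKM with DMSO, the opposite order to COLO205. The ZNF175 difference in MDAMB231 was -0.81 ± 0.089, and its HCT116 groups overlapped, at 3.20, 2.82 and 3.31 FPKM with ML-792 and 3.16, 2.63 and 2.81 FPKM with DMSO.

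Counts of members called with ML-792, at 16 h unless stated, are given next by features that the choice of members had not used. They are a description with no test. Over all genes tested, 8.32% were higher and 6.42% lower in HCT116. The shares were 19.4% and 17.7% in COLO205, and 8.38% and 8.48% in MDAMB231. A KRAB A-box pattern was matched by 48 members, 100 had no match and 2 had no coding sequence. The pattern was an aspartate, 4 free residues, a phenylalanine, 3 free residues, a glutamate and a tryptophan, and it misses some KRAB proteins. Among members with a match, 26 of 48 (54.2%) were higher in HCT116 and none lower, with a median change of 0.21, and 18 of 100 (18%) without a match were higher and 2 lower, with a median of 0.02. In COLO205, 19 of 48 with a match were higher and 3 lower, and 19 of 100 without a match were higher and 22 lower. In MDAMB231 the counts were 7 higher and 2 lower with a match, and 5 higher and 5 lower without. A stricter pattern matched 27 members, of which 18 were higher in HCT116, and a looser pattern 52, of which 26 were higher. In HCT116 at 3.5 h without heat shock, 1 of 46 with a match and 4 of 99 without were higher and none lower. The medians there were 0.07 and 0.005, and 1.02% of all genes tested were higher. Under heat shock 11 of 46 with a match were higher and 9 lower, and 25 and 11 of 99 without a match, beside 18.4% and 15.1% of all genes tested.

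**Figure D2:**
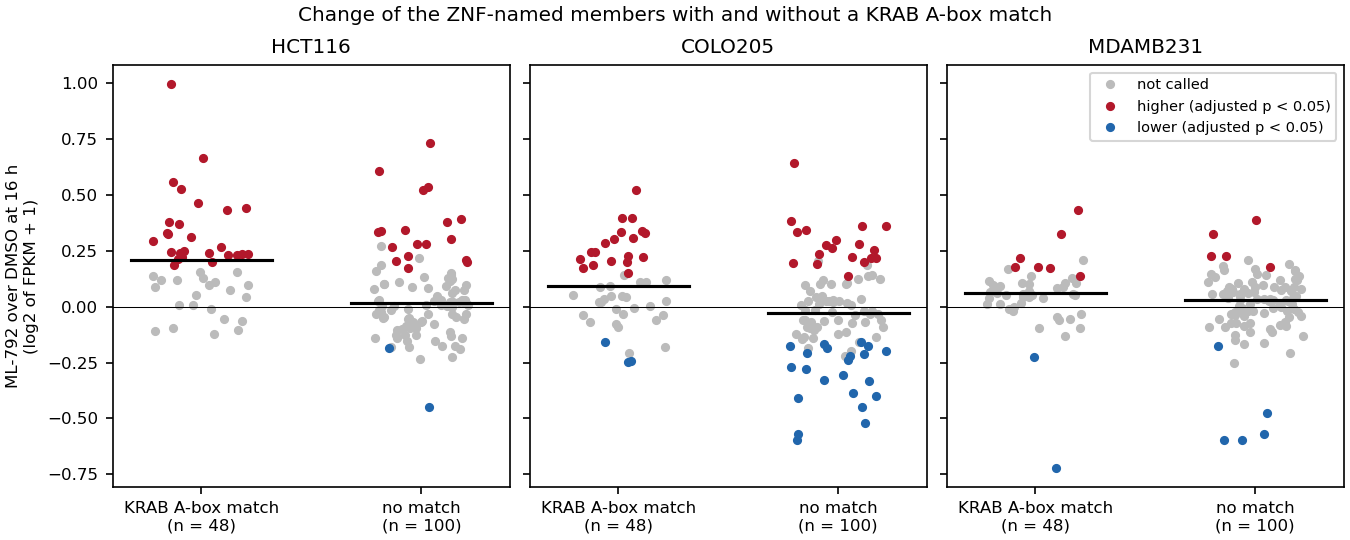
Change with ML-792 over DMSO at 16 h (vertical axis, log2 of FPKM + 1) of the members with a KRAB A-box match (n = 48) and without (n = 100) in each line. Points are genes, coloured by call, black bars are medians and the horizontal spread is arbitrary. In HCT116 the medians are 0.21 with a match and 0.02 without, and no gene with a match is called lower.

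Members were also counted by finger number and by chromosome. The shares of all genes tested were 8.32% higher and 6.42% lower in HCT116, and 19.4% and 17.7% in COLO205. Genes of chromosome 19 outside the members were not counted, so no share for that chromosome is given. The members had a median of 8 fingers, counted as 2 cysteines and 2 histidines at fixed spacing, with 31 the highest number and 6 members with none found. In HCT116, 27 of 54 members with 10 or more fingers were higher and none lower, as were 15 of 54 with 5 to 9 fingers, with 1 lower, and 2 of 40 with 0 to 4 fingers, with 1 lower. Chromosome 19 carried 41 members, of which 23 were higher in HCT116 and 1 lower, and of the other 109 members 21 were higher and 1 lower. In COLO205 the chromosome 19 counts were 17 higher and 4 lower, and on the other chromosomes 21 higher and 21 lower.

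On chromosome 19 several of the genes that rose stood next to each other among the members. ZNF266, ZNF121, ZNF561 and ZNF562 changed by 0.66, 0.33, 0.38 and 0.37 in HCT116. ZNF224, ZNF226 and ZNF227 changed by 0.34, 0.38 and 0.54. A run of ZNF766, ZNF480, ZNF83, ZNF28, ZNF468, ZNF160 and ZNF761 held changes between 0.24 and 0.56. ZNF428, the gene that fell, lies between ZNF576 and ZNF224 in that order, and neither the 3 members before it nor the run of ZNF524, ZNF581, ZNF580, ZNF787 and ZNF444 was called. Neighbours in such clusters are paralogs with similar sequence, and reads shared between them could have been split by the authors' counting, so single values in the clusters are uncertain.

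**Figure D3:**
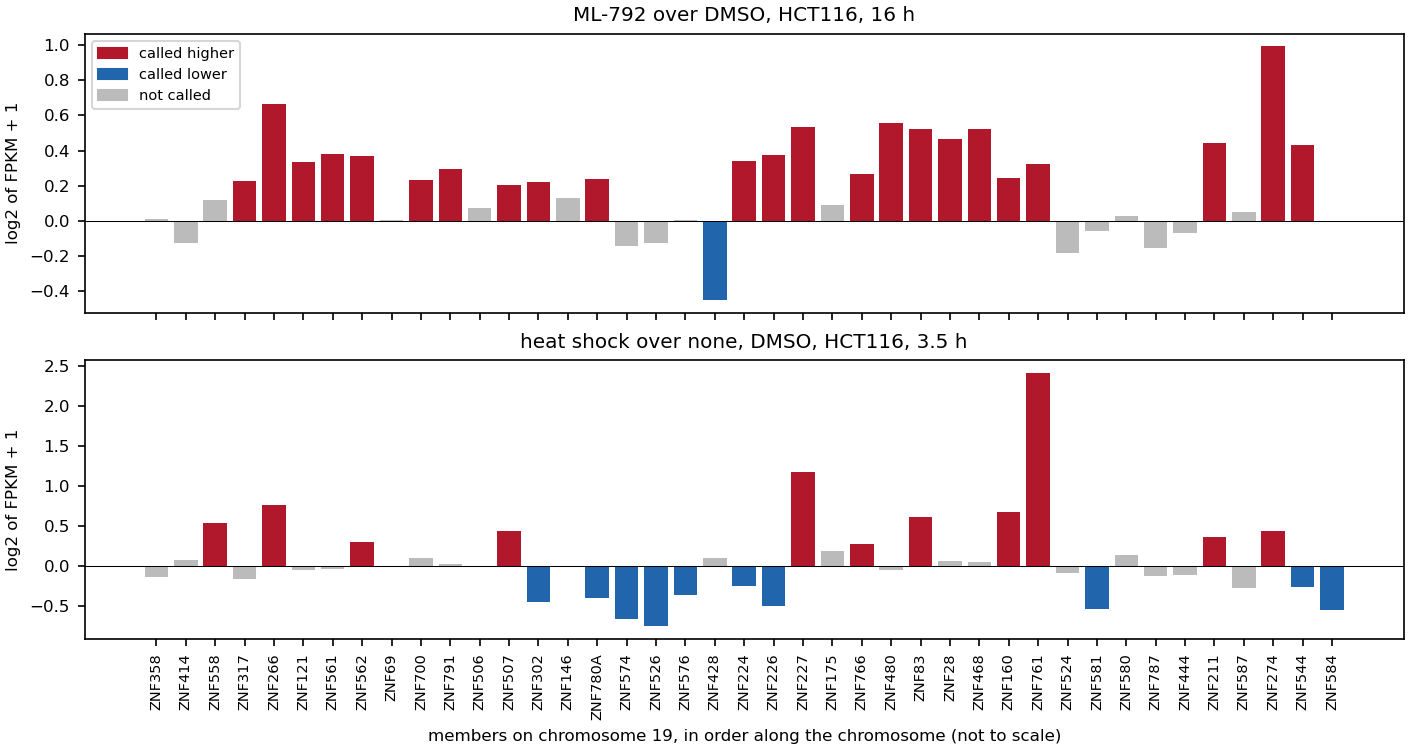
The 41 members on chromosome 19 in their order along it, evenly spaced and not to scale. Bars give the log2 change of FPKM + 1 with ML-792 over DMSO in HCT116 at 16 h (top) and with heat shock over none in DMSO (bottom), with colour for the call and no bar in the bottom panel for ZNF69 and ZNF506, which were not tested there. Red bars in the top panel stand in runs, with ZNF274 the tallest at 0.99, and ZNF761 and ZNF227 are the tallest in the bottom panel at 2.42 and 1.17.

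Transcript GC content moved with the same groups and is given beside them. Median GC of the longest transcript was 42.7% in members with a KRAB match and 49.4% in members without. In HCT116, 35 of 77 members under 45% GC were higher and none lower, while of 58 members at 50% or more 3 were higher and 2 lower. In COLO205 these counts were 30 and 6 under 45%, and 3 and 17 at 50% or more. With a KRAB match, 21 of 34 members under 45% were higher in HCT116, with a median change of 0.23. At 45% or more, 5 of 14 were higher, with a median of -0.000721. Without a match the counts were 14 of 42 (median 0.12) and 4 of 58 (median -0.05). Counts by GC content were not made for all genes. Across the 150 members the change and GC content had a Spearman correlation of -0.656 in HCT116, -0.476 in COLO205 and -0.15 in MDAMB231, a description over genes that share libraries. After a trend on GC content and transcript length over all genes had been taken out of each library, 40 members were higher in HCT116 and 6 lower, and 39 of the 40 were among the 44. Of all genes in that fit, 9.41% were higher and 9.08% lower. In that fit 23 of 48 members with a KRAB match were higher and none lower, and 17 of 100 without a match were higher and 6 lower.

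**Figure D4:**
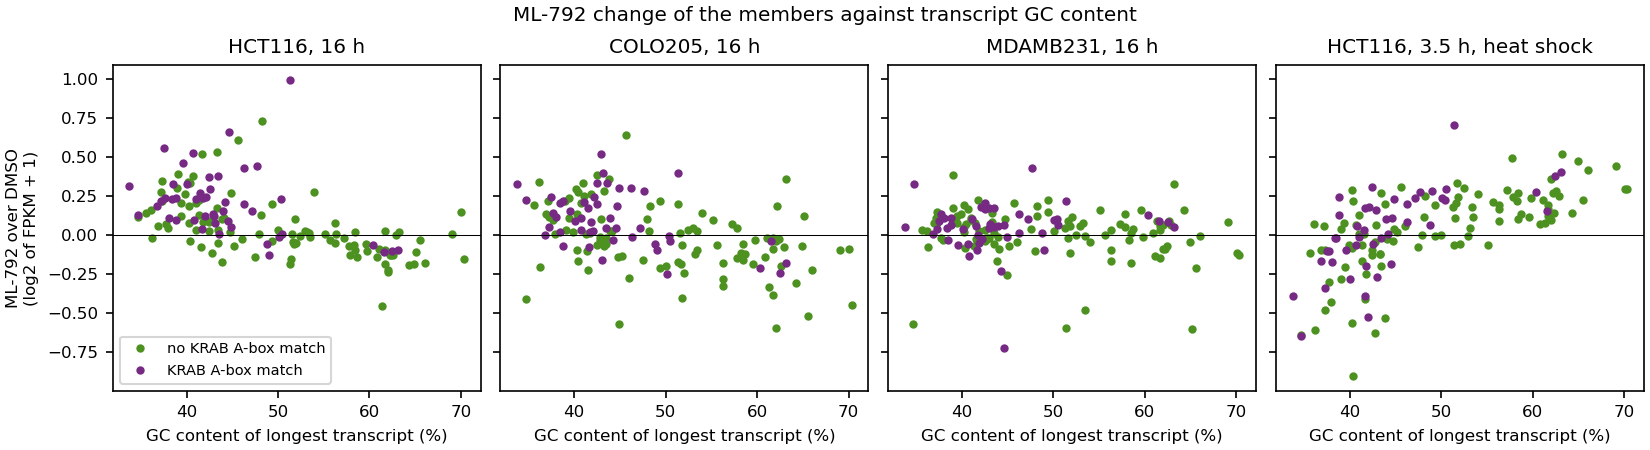
Change with ML-792 over DMSO (vertical axes, log2 of FPKM + 1) against the GC content of the longest transcript (horizontal axes, %) for the members in 4 comparisons, with colour for a KRAB A-box match. The Spearman correlations are -0.656, -0.476 and -0.15 at 16 h in HCT116, COLO205 and MDAMB231, and 0.688 under heat shock.

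The rest of the ZNF-named family was tested in the same fits. Of 280 tested rows under the limit of 4 FPKM, 93 were higher with ML-792 and 2 lower in HCT116, 89 and 14 in COLO205, and 55 and 5 in MDAMB231. Of 36 genes with the names ZFP, ZKSCAN, ZSCAN or ZBTB and the same level, 2 were higher and 1 lower in HCT116, 10 and 4 in COLO205, and 2 and 1 in MDAMB231. Over all genes tested the shares were 8.32% higher and 6.42% lower in HCT116, 19.4% and 17.7% in COLO205, and 8.38% and 8.48% in MDAMB231. No test of a difference between these sets was made.

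After 3.5 h of ML-792 without heat shock, 5 of the 147 members tested (3.4%) were higher than with DMSO and none lower. The background was 1.02% higher and 0.189% lower of 12191 genes. ZNF506, ZNF703 and ZNF69, which are near 0 in HCT116, were not tested. ZNF274 again rose most, with 5.0, 5.15 and 5.25 FPKM in ML-792 libraries against 2.43, 2.76 and 3.07 FPKM in DMSO libraries (log2 0.71 ± 0.087, adjusted p = 0.000851). ZNF75A was at 4.43, 4.95 and 4.50 FPKM with ML-792 and at 2.54, 2.91 and 3.15 FPKM with DMSO (log2 0.54 ± 0.093). ZNF532 was at 4.71, 4.76 and 4.64 FPKM with ML-792 and at 3.37, 3.53 and 3.41 FPKM with DMSO (log2 0.36 ± 0.052). ZNF239 and ZNF227 both changed by 0.30, with adjusted p-values of 0.0437 and 0.0382. These are the 5 genes, and their groups did not overlap.

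The calls of ZNF239 and ZNF227 at 3.5 h were lost whichever of the 6 libraries without heat shock was left out, with adjusted p up to 0.246 and 0.283. That of ZNF75A was lost without DMSO replicate 1 (0.0676) or ML-792 replicate 2 (0.066). With equal totals ZNF274 alone stayed called, and the adjusted p was 0.0503 for ZNF75A and 0.0574 for ZNF532. The count of 5 was 2 or 3 without any of the 6 libraries. When the 6 libraries were fitted alone it was 20, with 18 higher and 2 lower. Of all genes in that fit 4% were higher and 2.27% lower, so calls rose beyond the members too. When the 16 h change of HCT116 was set against the 3.5 h change, ZNF655 alone was called, with a difference of 0.36 ± 0.056 (adjusted p = 0.00329, background 1.12% larger and 1.28% smaller). It was at 20.4, 21.4 and 21.5 FPKM with ML-792 and at 16.5, 15.7 and 15.4 FPKM with DMSO at 16 h, and at 24.5, 23.5 and 23.2 FPKM with ML-792 and at 23.1, 23.5 and 22.8 FPKM with DMSO at 3.5 h. That count of 1 was 12 without HCT116 ML-792 replicate 1 of 16 h, 10 without HCT116 DMSO replicate 1 of 16 h, and 2 without HCT116 ML-792 replicate 1 of 3.5 h. The libraries of the 2 times differ in number block, depth and mitochondrial share, so time cannot be told apart from these.

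Members were both higher and lower in heat shocked cells than in the other cells of 3.5 h. The libraries with and without heat shock fall in separate number blocks, so heat shock and block cannot be told apart here. In DMSO-treated HCT116, 39 of 147 members were higher after heat shock and 43 lower, beside 28.9% higher and 20.6% lower of all genes tested. Scaling to equal totals moved the median of all genes tested in this comparison to -0.19, against 0.05 as deposited, and 14 members were then higher and 73 lower. With that scaling 10.6% of all genes tested were higher and 47.7% lower, near the shares of the members, 9.52% and 49.7%. Relative to the median of all genes, that of the members lay lower under either scaling, at -0.00125 as deposited and -0.23 with equal totals.

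ZNF761, a KRAB zinc finger gene of chromosome 19, had the largest rise. It was at 34.7, 34.0 and 33.2 FPKM after heat shock, against 5.57, 5.19 and 5.94 FPKM without it (log2 2.42 ± 0.073, adjusted p = 5.06e-11). ZNF227 was at 12.4, 12.5 and 11.3 FPKM after heat shock and at 4.78, 4.79 and 4.79 FPKM without it (log2 1.17 ± 0.062). ZNF394 was at 14.9, 14.7 and 17.0 FPKM after heat shock and at 6.58, 6.70 and 6.16 FPKM without it (log2 1.14 ± 0.076). All 3 genes had groups that stood well apart. ZNF410, known to control the NuRD gene CHD4, was at 34.9, 40.7 and 41.6 FPKM after heat shock and at 19.5, 20.7 and 21.3 FPKM without it (log2 0.89 ± 0.065). ZNF266 changed by 0.76 ± 0.071.

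Among the falls, ZNF639 changed most. It was at 10.4, 11.5 and 10.5 FPKM after heat shock and at 23.0, 25.2 and 19.7 FPKM without it (log2 -0.996 ± 0.098, adjusted p = 4.03e-06). ZNF217, an oncogene amplified in breast cancers, was at 5.14, 4.74 and 3.89 FPKM after heat shock and at 8.67, 9.36 and 9.24 FPKM without it (log2 -0.86 ± 0.10). ZNF346, which binds double-stranded RNA, was at 2.91, 2.51 and 2.66 FPKM after heat shock and at 5.79, 5.49 and 5.75 FPKM without it (log2 -0.85 ± 0.085). ZNF680 and ZNF12 changed by -0.85 and -0.77. None of these groups overlapped.

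**Figure D5:**
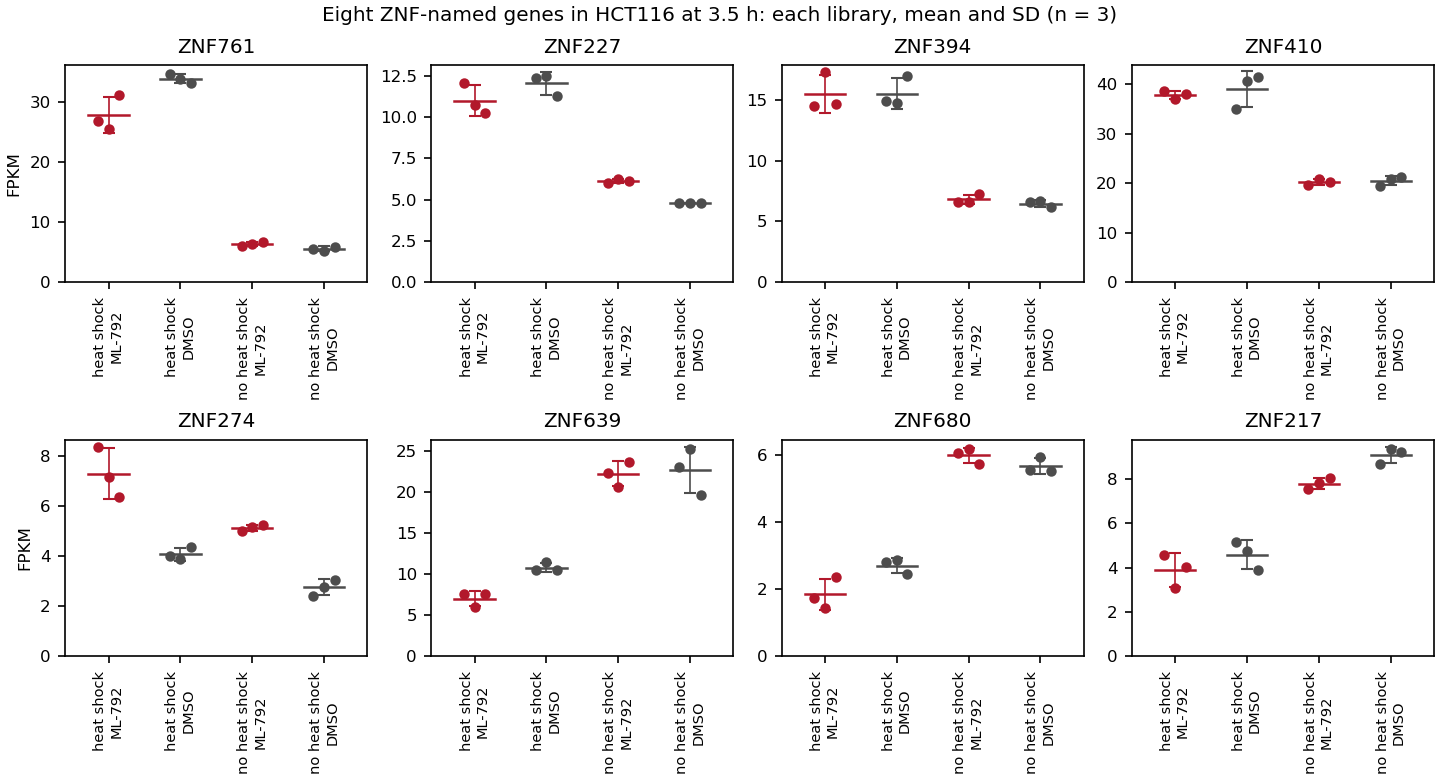
FPKM (vertical axes, from 0) of 8 named genes in the 12 HCT116 libraries of 3.5 h, with ML-792 in red and DMSO in grey. Points are libraries, long lines are means and bars are SD (n = 3). ZNF761 is at 33.2 to 34.7 with heat shock and at 5.19 to 5.94 without it in DMSO, and ZNF639 is at 10.4 to 11.5 with heat shock and at 19.7 to 25.2 without it.

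The windows of 250 bases before the starts of ZNF761 and ZNF227 are shown because these genes of chromosome 19 had the largest rises with heat shock in DMSO cells. Both are RefSeq sequences of GRCh38.p14 on the plus strand, chr19:53431734-53431983 and chr19:44212282-44212531, and capitals mark the CCAAT box, found in the ZNF227 window alone and read on the opposite strand.
ZNF761 promoter: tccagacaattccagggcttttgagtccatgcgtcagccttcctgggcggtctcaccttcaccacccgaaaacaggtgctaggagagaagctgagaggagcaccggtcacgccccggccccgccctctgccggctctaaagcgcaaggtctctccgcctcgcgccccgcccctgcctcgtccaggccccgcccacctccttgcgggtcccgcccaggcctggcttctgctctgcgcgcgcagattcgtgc
ZNF227 promoter: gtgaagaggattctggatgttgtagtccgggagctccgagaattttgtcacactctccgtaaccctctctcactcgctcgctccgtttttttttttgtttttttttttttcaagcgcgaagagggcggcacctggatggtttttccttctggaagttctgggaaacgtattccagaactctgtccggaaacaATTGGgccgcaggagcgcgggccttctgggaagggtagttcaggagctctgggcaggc
The heat shock element was searched as GAA, TTC and GAA in a row with 2 free bases between them, on either strand. These letters are in neither window, and they were found in 1 of 126 members (0.794%), ZNF83, and 0.557% of all genes with a promoter. The windows cover only the bases just before each start.

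With ML-792 present, 53 of 147 members were higher after heat shock and 43 lower, beside 39.3% and 22.3% of all genes tested. The same limit from the library blocks holds. With equal totals 13 were higher and 78 lower, beside 12.5% and 49% of all genes tested. The median of all genes was then -0.18, against 0.10 as deposited. ZNF761 was at 26.8, 25.6 and 31.2 FPKM after heat shock and at 6.03, 6.40 and 6.72 FPKM without it (log2 1.96 ± 0.073). ZNF394, ZNF410, ZNF513 and ZNF227 changed by 1.07, 0.87, 0.81 and 0.75. ZNF639 was at 7.61, 5.96 and 7.53 FPKM after heat shock and at 22.3, 20.7 and 23.7 FPKM without it (log2 -1.54 ± 0.098). ZNF680 was at 1.73, 1.45 and 2.36 FPKM after heat shock and at 6.07, 6.19 and 5.74 FPKM without it (log2 -1.31 ± 0.096). ZNF770, ZNF12 and ZNF518A changed by -1.22, -1.05 and -0.93. In each named gene the groups were separate.

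Under heat shock, 36 of 147 members were higher with ML-792 than with DMSO and 20 lower, beside 18.4% and 15.1% of all genes tested. With equal totals 15 were higher and 19 lower, beside 8.73% and 15.9% of all genes tested. ZNF274 again had the largest rise, at 8.37, 7.16 and 6.36 FPKM with ML-792 and at 3.99, 3.87 and 4.36 FPKM with DMSO (log2 0.70 ± 0.087, adjusted p = 0.000567). ZNF385A was at 19.3, 24.1 and 18.5 FPKM with ML-792 and at 13.9, 13.0 and 15.2 FPKM with DMSO (log2 0.52 ± 0.084). ZNF444, ZNF524 and ZNF205 changed by 0.49, 0.48 and 0.41. ZNF706, among the most abundant members, was at 39.8, 41.3 and 86.6 FPKM with ML-792 and at 90.3, 94.0 and 113 FPKM with DMSO (log2 -0.90 ± 0.23). Its ML-792 replicate 3 came close to the DMSO libraries. ZNF92, ZNF518A, ZNF277 and ZNF639 changed by -0.65, -0.64, -0.62 and -0.56, and in ZNF92, ZNF518A and ZNF277 ML-792 replicate 3 was also the highest of its group.

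The calls under heat shock depended on single libraries and on the fit. The ML-792 heat shock group had the widest spread, with a median SD of 0.127 over the members on the log2 scale, against 0.0443 to 0.0856 in the other 9 groups. Its count of 56 called members was 24 without heat shocked DMSO replicate 2, 33 without heat shocked ML-792 replicate 2, and 5 when the 6 heat shocked libraries were fitted alone. The loss in that last fit was general, with 0.735% of all genes higher and 1.39% lower, against 18.4% and 15.1% in the fit of 12 libraries. The call of ZNF706 was lost without ML-792 replicate 2 (adjusted p = 0.0708), and that of ZNF524 without that replicate, ML-792 replicate 1 or DMSO replicate 2 (up to 0.148). Fitted on the 6 libraries alone, ZNF706, ZNF444, ZNF524, ZNF205, ZNF92 and ZNF518A lost their calls (0.0546 to 0.101). ZNF524 also lost its call with no filter (0.0751) and with equal totals (0.0652). The change also went with GC content, with a Spearman correlation of 0.688 over 147 members. Of 57 members at 50% GC or more, 28 were higher and none lower, and of 75 under 45% GC, 3 were higher and 20 lower. After the same removal of GC and length trends, 21 members were higher and 14 lower, and 11 of the 36 and 11 of the 20 were shared with the fit as deposited. Of all genes in the fit with the trends removed, 8.1% were higher and 10.5% lower. ZNF444 (adjusted p = 0.0775), ZNF524 (0.271) and ZNF205 (0.0607) were not called in that fit.

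Tested as an interaction, the ML-792 change differed with heat shock, or with the library block that goes with it, in 20 members. It was higher in 10 and lower in 10, beside 2.48% and 3.93% of all genes tested. ZNF282 was at 13.3, 15.2 and 11.8 FPKM with ML-792 and at 9.95, 9.95 and 9.70 FPKM with DMSO under heat shock, and at 11.3, 10.3 and 11.4 FPKM with ML-792 and at 12.2, 11.9 and 12.6 FPKM with DMSO without it. The groups were thus in opposite order, with an interaction of 0.55 ± 0.11 (adjusted p = 0.0214). ZNF367 was at 8.95, 9.73 and 9.45 FPKM with ML-792 and at 13.8, 14.8 and 13.3 FPKM with DMSO under heat shock, and at 14.0, 13.4 and 12.4 FPKM with ML-792 and at 13.0, 13.7 and 12.6 FPKM with DMSO without it, where the groups overlapped (interaction -0.55 ± 0.087). The count of 20 was 1 or 2 without any of the 6 libraries without heat shock, 1 without heat shocked DMSO replicate 2, 34 without heat shocked DMSO replicate 3 and 47 without heat shocked ML-792 replicate 3.

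A list of 26 genes for cofactors of KRAB zinc finger repression was tested in the same fits. In HCT116 at 16 h, 5 of the 26 were higher with ML-792 and 1 lower, beside 8.32% and 6.42% of all genes tested. In COLO205 10 were higher and 2 lower (background 19.4% and 17.7%), and in MDAMB231 2 were higher and 3 lower (8.38% and 8.48%). At 3.5 h 2 were higher and 0 lower without heat shock (1.02% and 0.189%), and 9 were higher and 4 lower under heat shock (18.4% and 15.1%). No test of the list was made. ATF7IP, the partner of SETDB1, was higher in all 5 of these comparisons, with changes of 1.5 in HCT116, 1.09 in COLO205, 0.38 in MDAMB231, 0.79 at 3.5 h and 0.64 under heat shock. MORC2, a silencing ATPase, changed by 0.36, -0.12, 0.08, 0.48 and 0.38 in the same order, and passed in all but MDAMB231. TRIM28 passed in none of the 5, and SETDB1 only in COLO205, where it changed by -0.17. CHD4 changed by 0.03 in HCT116, -0.04 in COLO205 and 0.03 in MDAMB231 at 16 h and passed in none of these lines. With heat shock in DMSO cells, 8 of the 26 were higher and 7 lower, near the 28.9% and 20.6% of all genes tested, and ATF7IP2 changed most, by 2.94.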

How the data were processed

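Polyadenylated RNA of 30 cell line libraries was measured, 3 in each of 10 groups, with stranded libraries and paired reads of 50 bases, per the labels' protocols. The authors deposited 1 table of gene values, taken here as FPKM. The sums per library, 461422 to 732251, are not those of TPM. DESeq2 1.10.1 stands in the submitters' processing notes with no role given. The read aligner, the build and the gene annotation were not given in the sources used here. Only relative depth is known, so no counting intervals are given.

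Tests used limma 3.58.1 in R 4.3.3 (trend and robust) on log2(FPKM + 1). A gene entered a fit if 3 of its libraries reached 1 FPKM. The fits held the 18 libraries of 16 h (14251 genes), the 12 of 3.5 h (12191) and the 12 HCT116 libraries without heat shock (12462). Benjamini-Hochberg adjustment ran over all genes, with a threshold of 0.05, and the fit was tested on simulated data.

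The members and lists were chosen with earlier results of these data known. Named are the largest called changes without overlap of groups (6 rises and 4 falls in each line, 5 and 5 at 3.5 h, 3 and 3 in each interaction), genes called in all 3 lines, the 5 highest members and those beside the limit. Other genes were picked after their values were seen. GC content, fingers (spacings of 2 to 4, 12 and 3 to 5 residues) and KRAB matches came from the longest GENCODE v29 transcripts and translations. Names, chromosomes and promoters came from RefSeq, which matched all 150 members. Alternatives were other pseudocounts, filters, scalings and limits, libraries left out, fits on the compared libraries alone, and removal of GC and length trends.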

Additional observations from a re-analysis of the deposited data

Results flagged for a closer look

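The ML-792 change at 16 h differed between lines in 11 of the comparisons of single genes that were named, tested as an interaction in limma. For COLO205 minus HCT116 the log2 differences were 0.53 for ZNF367, 0.39 for ZNF182 and 0.35 for ZNF185 on the positive side, and -0.84 for ZNF239, -0.60 for ZNF274 and -0.54 for ZNF75A on the negative side. For MDAMB231 minus HCT116 they were 0.54 for ZNF428 and 0.31 for ZNF385A, and -0.81 for ZNF175, -0.77 for ZNF274 and -0.69 for ZNF518A. ZNF75A is near 0 in COLO205, at 0.220, 0.239 and 0.412 FPKM with ML-792 and at 0.0891, 0.109 and 0.192 FPKM with DMSO, and its difference was -0.12 with a pseudocount of 0.1 (adjusted p = 0.775). The ZNF385A difference lost its call in 5 of 20 alternatives, with a pseudocount of 5 and without HCT116 ML-792 replicate 2 or 3, HCT116 DMSO replicate 3 or MDAMB231 DMSO replicate 1 (adjusted p 0.0503 to 0.0594). ZNF185 changed by 0.20 in COLO205 and by -0.15 in HCT116.

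The ML-792 change at 3.5 h differed between cells with and without heat shock, as an interaction, by 0.55 for ZNF282, 0.44 for ZNF496, 0.44 for ZNF584, -0.71 for ZNF92, -0.63 for ZNF83 and -0.55 for ZNF367. ZNF92 was at 4.29, 3.65 and 6.43 FPKM with ML-792 and at 8.05, 8.12 and 7.51 FPKM with DMSO under heat shock, and at 7.52, 7.46 and 7.35 FPKM with ML-792 and at 6.88, 7.45 and 6.94 FPKM with DMSO without it. Of these 6, ZNF367 alone kept its call in all 20 alternatives, and ZNF282, ZNF496, ZNF584, ZNF83 and ZNF92 lost it in 7, 10, 12, 9 and 11 of them. The ML-792 change in HCT116 differed between 16 h and 3.5 h by 0.36 for ZNF655, where time and library block cannot be told apart.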

How the results depend on the processing

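Of 89 changes of named genes, 67 kept their call and direction under every alternative run, 22 lost the call under at least 1 and none reversed. Counts of called members moved by over 1.5 times as follows, and the cause was not tested unless fewer members entered. With members at 8 FPKM or more, which are 58 genes, the counts were 13 in HCT116, 24 in COLO205 and 8 in MDAMB231 at 16 h, 1 in all 3 lines, 1 for ML-792 at 3.5 h, 23 for ML-792 under heat shock, 30 for heat shock in DMSO, 39 for heat shock in ML-792, 13 and 9 for COLO205 and MDAMB231 minus HCT116, and 8 for the interaction of heat shock and ML-792. No share of all genes at 8 FPKM or more is given beside these counts. With members chosen on the 12 libraries of 3.5 h, ML-792 at 3.5 h gave 8. That choice used the ML-792 libraries tested there, so it can favour genes that are higher in them. With GC and length trends removed, MDAMB231 gave 34 (19 as deposited), all 3 lines 10 (4), ML-792 at 3.5 h 10 (5), ML-792 under heat shock 35 (56), the interaction 3 (20) and 16 h minus 3.5 h 10 (1). Of all genes in those fits, 12.4% were higher and 12.9% lower in MDAMB231, and 1.71% and 0.531% at 3.5 h. The shares were 0.635% and 2.16% in the interaction, and 3.04% and 3.52% for 16 h minus 3.5 h. With libraries scaled to equal totals outside mitochondrial genes, ML-792 under heat shock gave 34, ML-792 at 3.5 h 1, COLO205 minus HCT116 21 (33), the interaction 2 and all 3 lines 1. Of all genes tested with that scaling, 0.751% were higher and 0.203% lower at 3.5 h, and 0.278% and 1.66% in the interaction. With no filter, ML-792 at 3.5 h gave 3, the interaction 6 and all 3 lines 2. Of all genes tested with no filter, 0.468% were higher and 0.0909% lower at 3.5 h, and 0.368% and 0.591% in the interaction. With a filter at 5 FPKM, ML-792 at 3.5 h gave 3 and 16 h minus 3.5 h gave 2, and a pseudocount of 5 gave 3 in the last. Of all genes tested with that filter, 1.02% were higher and 0.215% lower at 3.5 h, and 1.48% and 1.7% for 16 h minus 3.5 h. With that pseudocount the last were 1.25% and 1.45%. Fitted on their own libraries, ML-792 gave 20 at 3.5 h and 5 under heat shock. Of all genes in those fits, 4% were higher and 2.27% lower at 3.5 h, and 0.735% and 1.39% under heat shock. No shares of all genes are given for the counts that follow, or for those in all 3 lines above. With 1 replicate left out at a time, so that a group of 2 borrowed its spread from the others, the counts ran from 31 to 53 in HCT116, 52 to 61 in COLO205, 9 to 23 in MDAMB231, 1 to 6 in all 3 lines, 2 to 3 for ML-792 at 3.5 h, 24 to 67 for ML-792 under heat shock, 70 to 81 and 78 to 99 for heat shock in DMSO and ML-792, 19 to 31 and 17 to 31 for COLO205 and MDAMB231 minus HCT116, 1 to 47 for the interaction and 1 to 12 for 16 h minus 3.5 h.

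No paired analysis was possible because group labels hold no common replicate numbers. Absolute depth is unknown, so the counting error of changes in genes near 0, such as ZNF75A in COLO205, could not be given.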
